A study of Mus musculus with 5 samples.

Results

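Retinoid metabolism and response genes were examined for binding of RXRα in alveolar macrophages (AMs) of the mouse, the macrophages that reside in the air spaces of the lung. The list held 9 genes of 21924 protein-coding genes in the annotation: Dhrs3, Tgm2, Cyp26a1, Cyp26b1, Rdh10, Aldh1a1, Aldh1a2, Crabp2 and Stra6. A peak was given to a gene where the nearest transcription start site (TSS) of any protein-coding gene to its midpoint belonged to that gene. The genes were chosen by their role in the pathway and with earlier results of these same peaks known, so that their peak numbers and heights are a description and not a test.

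Binding was assayed by HT-ChIPmentation, a form of ChIP-seq whose libraries are made by Tn5 transposase while the precipitated chromatin is still on the beads. AMs were sorted by flow cytometry from the bronchoalveolar lavage of 9-wk-old mice. WT A and WT G were libraries of the genotype CD11cCre- Rxrabfl/fl and KO A and KO G of the genotype CD11cCre+ Rxrabfl/fl, so that both groups carried floxed Rxra and Rxrb and only the KO carried Cre under Cd11c control, which is active in AMs but also in other cells that express Cd11c. The labels do not say what the letters A and G stand for or whether cells of several mice were pooled, and differences between libraries of one genotype may therefore be technical. The antibody was raised against RXRα, and an input library served as the control for peak calling.

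Retinol is taken up by cells through the receptor STRA6 and oxidized reversibly to retinal, a step run forward by RDH10 and backward by DHRS3. Retinal is oxidized to retinoic acid by ALDH1A1 and ALDH1A2, the acid is carried to the nucleus by CRABP2, and it is degraded by CYP26A1 and CYP26B1. Retinoic acid activates RAR, which binds DNA as a heterodimer with RXR at direct repeats of the hexamer AGGTCA. Dhrs3, Cyp26a1 and Tgm2, the last encoding a transglutaminase, are textbook genes induced by retinoic acid.

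The RXRα peaks of the list lay almost wholly at 2 genes. Dhrs3 had 13 and 21 peaks in the WT lists (A and G) and 2 in each KO list, and Tgm2 had 7 and 12 in the WT lists, 0 in KO A and 2 in KO G. Rdh10 had 1 peak in each WT list, Cyp26b1 had 1 in WT G and Aldh1a2 had 1 in WT A. Cyp26a1, Aldh1a1, Crabp2 and Stra6 had none in any of the 4 lists.

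**Figure D1:**
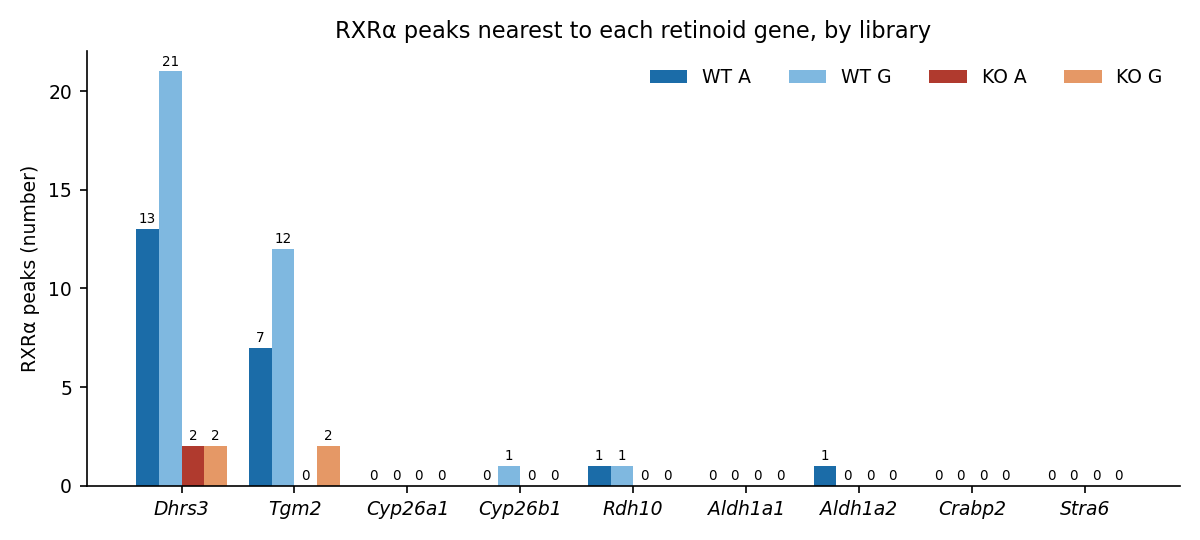
Number of RXRα peaks (y axis) nearest to each of the 9 genes (x axis), 1 bar for each library with its count above it. Dhrs3 reached 21 peaks in WT G and Tgm2 12, and neither gene had more than 2 peaks in a KO list.

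The deposited lists were of unequal length, with 4751 (WT A), 9766 (WT G), 83 (KO A) and 208 (KO G) peaks. Read totals are not part of them, and the depth was inferred from the numbers of fragments that the fold enrichment and p-value of the peaks imply. WT A was the deepest library, and relative to it the depth was 0.21 (WT G), 0.572 (KO A) and 0.75 (KO G). A summit rested on a median of 16 fragments in WT A and 8 in WT G, and on 14 and 12 in KO A and KO G. A peak marks where the antibody against RXRα enriched DNA and not whether a gene was expressed, so the peaks cannot check the sorted cell type. The KO lists were far shorter than the WT lists, but how complete the deletion was cannot be read from peak numbers. What gave the peaks that remained in the KO lists was not tested. Of 10 AM genes (Pparg, Siglecf, Itgax, Marco, Fabp4, Car4, Ear1, Chil3, Krt79 and Cidec), 8 had a region bound in both WT lists, the exceptions being Fabp4 and Ear1, beside 8.82% of all 21924 protein-coding genes.

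The stretches of mm10 sequence that carry the account of Dhrs3 come first. The first holds the summits of both WT peaks in the strongest region of the gene, the second the strongest KO summit there, and the others the intronic stretches of the gene with a repeat within 50 bp of a WT summit and an upstream repeat at its promoter. Capitals mark every direct repeat of AGGTCA with 1 to 5 bases between the copies (DR1 to DR5), on either strand, with at most 2 mismatches in the 12 letters. Where matches overlap, the capitals cover their union.
Dhrs3 +68.2 kb, WT summits (chr4:144961268-144961470, + strand): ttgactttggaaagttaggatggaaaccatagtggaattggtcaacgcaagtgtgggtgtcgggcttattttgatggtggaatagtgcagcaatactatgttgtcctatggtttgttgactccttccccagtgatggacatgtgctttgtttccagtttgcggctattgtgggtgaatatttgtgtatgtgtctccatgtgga
Dhrs3 +68.2 kb, KO A summit (chr4:144961687-144961986, + strand): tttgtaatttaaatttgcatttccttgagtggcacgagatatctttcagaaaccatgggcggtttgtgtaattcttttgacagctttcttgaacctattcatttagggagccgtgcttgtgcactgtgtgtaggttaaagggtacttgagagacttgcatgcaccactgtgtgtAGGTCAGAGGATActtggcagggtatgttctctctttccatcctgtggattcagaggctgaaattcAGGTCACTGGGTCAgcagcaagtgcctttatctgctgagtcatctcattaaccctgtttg
Dhrs3 +5.23 kb (chr4:144898347-144898497, + strand): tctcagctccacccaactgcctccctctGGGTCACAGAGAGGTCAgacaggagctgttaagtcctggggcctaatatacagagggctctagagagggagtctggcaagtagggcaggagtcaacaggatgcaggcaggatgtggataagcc
Dhrs3 +13.5 kb (chr4:144906338-144906488, + strand): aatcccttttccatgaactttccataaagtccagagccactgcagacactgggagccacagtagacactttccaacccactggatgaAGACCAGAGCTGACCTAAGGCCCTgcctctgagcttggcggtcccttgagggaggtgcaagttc
Dhrs3 +15.8 kb, WT A summit (chr4:144908871-144909021, + strand): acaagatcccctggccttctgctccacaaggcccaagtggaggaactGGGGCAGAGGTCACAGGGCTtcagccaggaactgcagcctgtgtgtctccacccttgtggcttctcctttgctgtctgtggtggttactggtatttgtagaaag
Dhrs3 promoter, upstream part (chr4:144892050-144892169, + strand): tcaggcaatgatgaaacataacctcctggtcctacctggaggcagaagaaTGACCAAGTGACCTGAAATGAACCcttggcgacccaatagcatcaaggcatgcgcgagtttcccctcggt

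For Tgm2, the stretch around the summits of the strongest region is shown because the KO G summits lie on both sides of the WT summits in it, and an intronic stretch because it holds overlapping repeats.
Tgm2 -28.9 kb (chr2:158175499-158175798, + strand): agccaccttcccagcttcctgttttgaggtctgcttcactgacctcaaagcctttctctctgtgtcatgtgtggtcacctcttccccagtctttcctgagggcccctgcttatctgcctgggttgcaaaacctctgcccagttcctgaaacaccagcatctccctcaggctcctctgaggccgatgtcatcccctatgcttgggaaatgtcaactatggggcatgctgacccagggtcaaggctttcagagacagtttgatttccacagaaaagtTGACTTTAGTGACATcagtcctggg
Tgm2 +15.9 kb (chr2:158130293-158130443, + strand): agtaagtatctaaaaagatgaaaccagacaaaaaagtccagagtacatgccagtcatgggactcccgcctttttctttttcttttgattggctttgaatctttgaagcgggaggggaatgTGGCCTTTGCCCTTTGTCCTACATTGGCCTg

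For the genes with few peaks or none, the single Aldh1a2 peak and the Cyp26a1 promoter (RefSeq, GRCm38.p6, 250 bases before to 50 after the start) are shown as examples that hold a repeat.
Aldh1a2, WT A peak (chr9:71213821-71213980, + strand): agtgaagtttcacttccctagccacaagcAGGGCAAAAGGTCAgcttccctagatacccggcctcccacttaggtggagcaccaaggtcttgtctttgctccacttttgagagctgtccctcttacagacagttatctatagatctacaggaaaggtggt
Cyp26a1 promoter (chr19:37697558-37697857, + strand): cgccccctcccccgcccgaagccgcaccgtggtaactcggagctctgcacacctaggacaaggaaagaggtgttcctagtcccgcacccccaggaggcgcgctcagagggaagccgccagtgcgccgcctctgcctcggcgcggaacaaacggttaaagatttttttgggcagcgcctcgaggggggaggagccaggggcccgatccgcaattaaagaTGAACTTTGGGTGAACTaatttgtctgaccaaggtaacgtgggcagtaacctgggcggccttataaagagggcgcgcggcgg

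Peaks of the WT lists that shared at least 1 bp were merged into regions. The list had 38 regions in either WT list, of which 17 had a peak in both, 11 nearest to Dhrs3 and 6 nearest to Tgm2. Thus 2 of the 9 genes had a region in both WT lists, beside 8.82% of all protein-coding genes. Only 6 genes of the annotation, Dhrs3 among them, had 11 or more such regions, and 64 had 6 or more, while the median over the 1933 genes with any was 1. Of the WT A peaks of the list, 19 of 22 overlapped a WT G peak, beside 83.2% of all WT A peaks, and of the WT G peaks 17 of 35 overlapped a WT A peak, beside 36.1% of all WT G peaks. Since the genes were chosen with earlier results of these peaks known, nothing is read from these shares.

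Dhrs3 (ENSMUSG00000066026.14, chr4:144892827-144928209, + strand) encodes the enzyme that returns retinal to retinol. Its 11 regions in both WT lists ran over 128 kb, from the promoter to 126 kb downstream of the TSS, with the longest gap between neighbours at 46.6 kb. By the summit of the stronger WT peak, 1 lay in the 5′ UTR, 8 in introns (5 of Dhrs3 itself and 3 of its neighbour Vps13d) and 2 between genes.

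The strongest was centred 68.2 kb downstream of the Dhrs3 TSS, between genes (chr4:144960361-144962258). The −log10 q at its summit was 51.5 (WT A) and 38 (WT G), against 13.5 (KO A) and 9.89 (KO G). By −log10 q it was the peak of rank 2 of 4751 in WT A and of rank 9 of 9766 in WT G. The stronger KO peak in it had rank 15 of 83 in KO A and rank 28 of 208 in KO G. The weaker KO peak had a −log10 q of 3.99 (rank 72) in KO A and of 4.15 (rank 116) in KO G. By its strongest peak in each list the region was thus high in every library. Both WT values were above those of the stronger KO peaks. The −log10 q depends on depth, however, which differed between the libraries, and the region was singled out as the strongest of Dhrs3. Set against the background of each library, the intervals of KO A and WT A overlapped, as given below.

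The WT summits of that region, in the first stretch of sequence above, were 102 bp apart, at position 144961420 in WT A and 144961318 in WT G. No DR1 to DR5 match lay wholly within 50 bp of either, but a DR3 with 2 mismatches on the − strand, at 144961260 to 144961274, was centred 51 bp from the WT G summit and reached into that window. The printed stretch begins inside this match. KO A had 2 peaks there, with summits 109 bp and 367 bp from the WT A summit toward higher coordinates, and KO G had 2, with summits 41 bp and 701 bp from it, the first toward higher and the second toward lower coordinates. The stronger KO A peak (chr4:144961653-144961980) held a DR2 with 1 mismatch, AGGTCACTGGGTCA at 144961927 to 144961940, which lies 514 bp from the WT A summit. In the whole region 7 repeats were found, of which this was the one with fewer than 2 mismatches.

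Within Dhrs3, the region at the TSS (chr4:144892010-144893433) had a −log10 q of 8.06 (WT A) and 9.26 (WT G), and the WT A list split it into 2 peaks. The WT G summit lay in the 5′ UTR of a transcript of Dhrs3, 192 bp from the WT A summit. A DR2 with 1 mismatch, overlapped by a DR4 with 2, lay 1105 bp upstream of the WT G summit, inside the WT G peak and outside both WT A peaks. This is the repeat in the promoter stretch above. None of the 3 promoter windows of Dhrs3 in RefSeq (250 bases before to 50 after a start) held a DR1 to DR5, a match found in 13.7% of 32851 such windows over all genes.

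The first intronic region, at +5.23 kb (chr4:144898008-144898612), had a −log10 q of 5.5 (WT A) and 8.04 (WT G). It held a DR5 with 1 mismatch, GGGTCACAGAGAGGTCA, centred 39 bp from the WT G summit. DR5 is the spacing best known for RAR and RXR heterodimers, and it lay within 50 bp of the summit in 1 of the 17 regions and in 2.6% of all 3423 regions in both WT lists.

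The other 4 intronic regions of Dhrs3 stood at +8.81, +12.2, +13.5 and +15.8 kb. The −log10 q in WT A was 7.14, 11.3, 10.5 and 11.1, in that order, and in WT G it was 10.5, 5.73, 14.5 and 14.6. The region at +13.5 kb (chr4:144906222-144906884) held a DR2 and a DR4 that overlap, each with 2 mismatches, 29 bp and 20 bp from its WT G summit, and the WT A summit lay 249 bp away, the widest gap between WT summits in the list. The region at +15.8 kb (chr4:144908435-144909289) held an AP-1 word, TGACTCA, within 50 bp of its WT G summit. It also held 2 overlapping DR1 repeats, each with 2 mismatches, centred 22 bp and 15 bp from its WT A summit, which lay 133 bp from that of WT G. No KO peak lay in any of the 6 regions in or at the start of Dhrs3.

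Beyond the gene, the region at +63.1 kb (chr4:144955881-144956567) had a −log10 q of 8.06 (WT A) and 8.04 (WT G). The regions at +88.1 kb (chr4:144980622-144981658), +93.5 kb (chr4:144986379-144986787) and +126 kb (chr4:145018804-145019803) lay in introns of Vps13d, whose own start is farther away than that of Dhrs3. Their −log10 q was 15.8, 8.06 and 15.7 in WT A and 24.8, 9.26 and 19 in WT G. After the region at +68.2 kb, those at +88.1 and +126 kb were thus the highest of Dhrs3 in both WT lists. The region at +93.5 kb held a DR2 with 2 mismatches 22 bp from the summit, and that at +126 kb a PU.1 word, AGGAAGTG, within 50 bp of it.

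**Figure D2:**
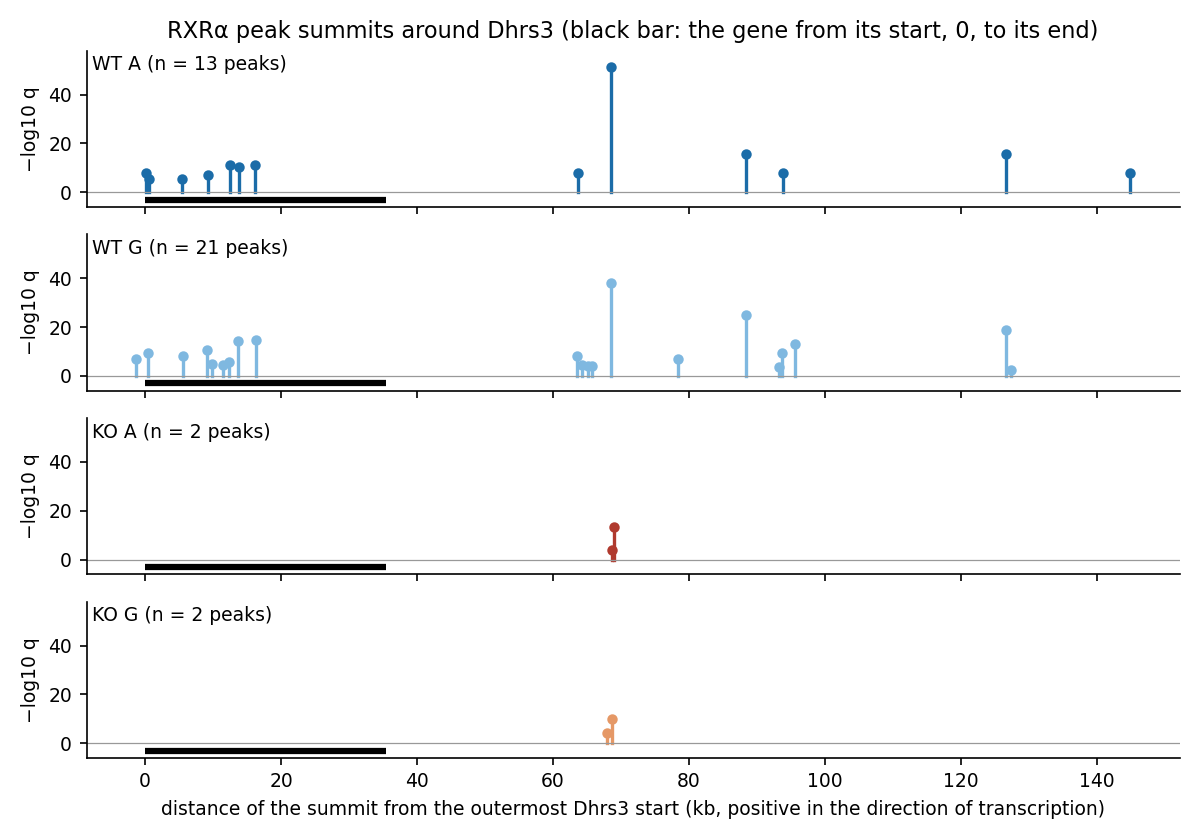
Summits of all RXRα peaks nearest to Dhrs3 by distance from its outermost TSS (x axis, kb) and −log10 q (y axis), 1 panel for each library, with the gene as a black bar. In WT A and WT G the peaks fall at the promoter, within the gene's first 20 kb and again beyond 60 kb, and the KO peaks all fall in the region at +68.2 kb.

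Tgm2 (ENSMUSG00000037820.15, chr2:158116402-158146436, − strand) encodes transglutaminase 2, which cross-links proteins and is used in macrophages as a marker of alternative activation. Its 6 regions in both WT lists ran over 45.9 kb, 3 in introns and 3 upstream, between genes. The highest lay 28.9 kb upstream of the TSS (chr2:158174535-158176075). The −log10 q at its summit was 41.3 in WT A and 45.2 in WT G, which ranked 5 and 4 in these lists. KO A had no peak there, and KO G had 2 peaks, each with a −log10 q of 6.31 (rank 60 of 208).

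The WT summits of this region, at 158175670 in WT A and 158175697 in WT G, were 27 bp apart, the closest pair of the 17 regions. The KO G summits lay at 158175518 and 158175759, so that the WT summits stood between them, 152 bp from the first and 89 bp from the second in WT A. A DR3 with 2 mismatches on the − strand, in capitals in the sequence above, lay 84 bp from the WT G summit. No match lay wholly within 50 bp of either WT summit.

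**Figure D3:**
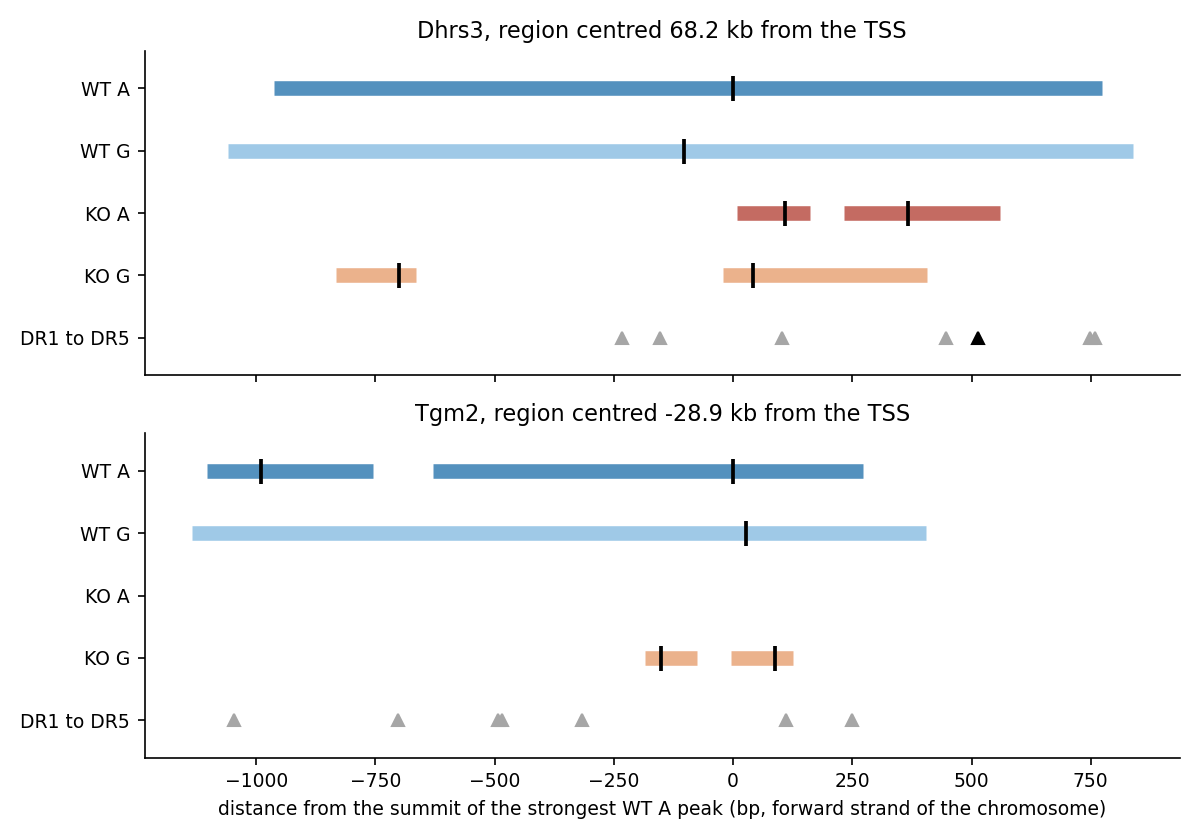
Peaks (bars) and summits (black ticks) of the 4 libraries in the 2 regions that have a KO peak, by distance from the summit of the strongest WT A peak (x axis, bp, forward strand). Triangles mark DR1 to DR5 with 2 mismatches (grey) or 1 (black). The KO peaks are shorter than the WT peaks around them, and in the Tgm2 region the KO G summits stand on both sides of the WT summits.

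The other 2 regions upstream of Tgm2 stood at −20.4 kb (chr2:158166593-158167112) and −3.37 kb (chr2:158149592-158150018). Their −log10 q was 5.22 and 9.11 in WT A and 6.88 and 10.5 in WT G. The first held 2 PU.1 words and the second a C/EBP word, TTGCNNAA, within 50 bp of the summit. In the introns, the regions at +9.79 kb (chr2:158136418-158136873), +13.2 kb (chr2:158132768-158133635) and +15.9 kb (chr2:158130138-158130859) had a −log10 q of 6.16, 11.3 and 10.2 in WT A and 5.87, 11.8 and 4.77 in WT G. None of these 5 regions had a KO peak. The region at +15.9 kb also lies within the annotated span of Rprd1b, and its overlapping DR1 repeats, in capitals with a DR4 in the sequence above, were centred 51 and 58 bp from the WT A summit, just outside the window of 50 bp.

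**Figure D4:**
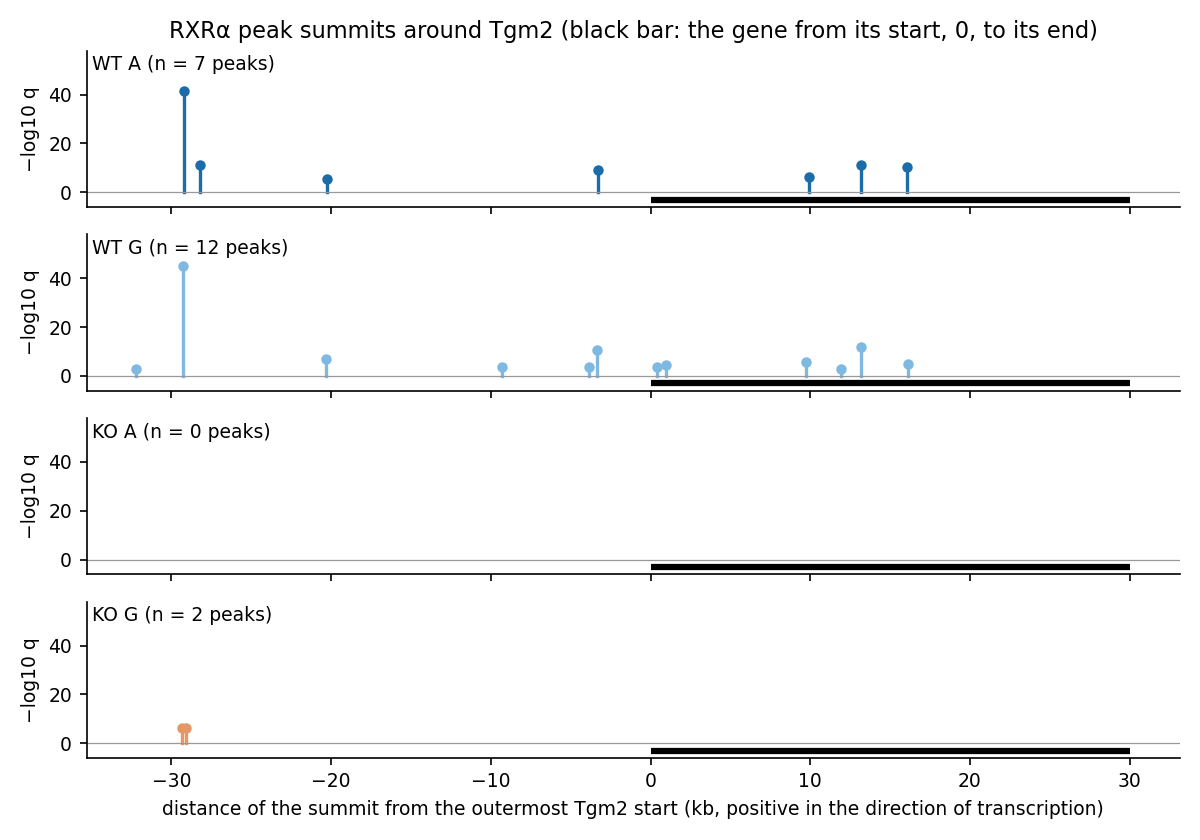
Summits of all RXRα peaks nearest to Tgm2 by distance from its outermost TSS (x axis, kb, positive in the direction of transcription) and −log10 q (y axis), 1 panel for each library, with the gene as a black bar. WT A and WT G share their highest peak 28.9 kb upstream, KO A has no peak and KO G has 2 at that place.

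Of the 17 regions, 2 had a KO peak, beside 5.87% of all 3423 regions in both WT lists: 1 in KO A and 2 in KO G. Both KO A peaks and all 4 KO G peaks of the list overlapped a WT peak, beside 98.8% of all 83 KO A peaks and 98.1% of all 208 KO G peaks. The mean number of peaks of the list was 28.5 ± 9.19 (SD, n = 2) for WT and 3 ± 1.41 (SD, n = 2) for KO. Their ratio was 9.5, while the ratio over all peaks was 49.9. An exact permutation test of 2 libraries against 2 cannot give a two-sided p under 0.333, so none was used. The ratio was 7.12 without KO A and 14.2 without KO G. Peaks of the list made up 0.463% (WT A) and 0.358% (WT G) of all WT peaks, and 2.41% (KO A) and 1.92% (KO G) of all KO peaks, the KO shares resting on 2 and 4 peaks.

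To set heights side by side across libraries, the fragments at a summit were divided by the genome-wide background of the same library, here called fold over background. In WT A the fragments were first multiplied by the factor of 0.884 that the pileup of that list carries. For the 17 regions it ranged from 9.87 to 38.8 in WT A (median 14.1) and from 16.3 to 63.5 in WT G (median 23.6). It was higher in WT G in all 17, as in 96.6% of all 3423 regions. The intervals of the libraries, which cover counting error only, were apart in 1 of the 17, the Tgm2 region at −28.9 kb. How often they were apart over all 3423 regions was not counted, so the 1 of 17 describes the list only.

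In the Dhrs3 region at +68.2 kb, 55 fragments gave a fold over background of 38.8 (95% Poisson interval 29.2 to 50.5) in WT A, and 33 fragments gave 59.9 (41.2 to 84.1) in WT G. In KO A, 19 fragments gave 19.7 (11.8 to 30.7), and in KO G 16 fragments gave 17.1 (9.77 to 27.8). The KO G interval lay below both WT intervals, while that of KO A overlapped the WT A interval at its upper end. By this measure the WT A summit was 1.97-fold and 2.27-fold as high as the highest of KO A and KO G, and the WT G summit 3.04-fold and 3.5-fold.

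In the Tgm2 region at −28.9 kb, 47 fragments gave 33.1 (24.3 to 44.1) in WT A, and 35 fragments gave 63.5 (44.2 to 88.3) in WT G. Each KO G peak had 13 fragments and a fold over background of 13.9 (7.4 to 23.8). That interval was below both WT intervals, and the WT summits were 2.39-fold and 4.57-fold as high.

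The lack of a KO peak at the other 15 regions was read against the lowest fold over background that each KO list called where the local background was the genome-wide one. That was 10.4 in KO A (10 fragments) and 8.55 in KO G (8 fragments). These values are a limit only where the local background is the genome-wide one. In both WT libraries that held for 8 of the 17 regions. At the remaining 9 a WT library had a higher local background, up to 2.39 times the genome-wide one at Dhrs3 +15.8 kb in WT A, so that the height needed for a KO call may be greater there and the lack of a KO peak was not read. Among the 8, both WT lower bounds were above the KO A value in 1, Tgm2 at −28.9 kb, which had no KO A peak. They were above the KO G value in 2, Tgm2 at −28.9 kb, which had KO G peaks, and Tgm2 at +13.2 kb, which had none. These comparisons cover the counting error of the WT libraries and not that of the KO libraries. At Tgm2 +13.2 kb the WT A lower bound of 9.16 stood close to the KO G value of 8.55, so the lack of a KO G peak was not read there either. At the others of the 8, a height equal to that of the lower WT library could have escaped a KO list by counting error alone. Loss of binding was thus not detectable at those regions at this depth one region at a time. The counts of regions by local background and by WT lower bounds were made for the list only. They were not made over all regions in both WT lists.

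**Figure D5:**
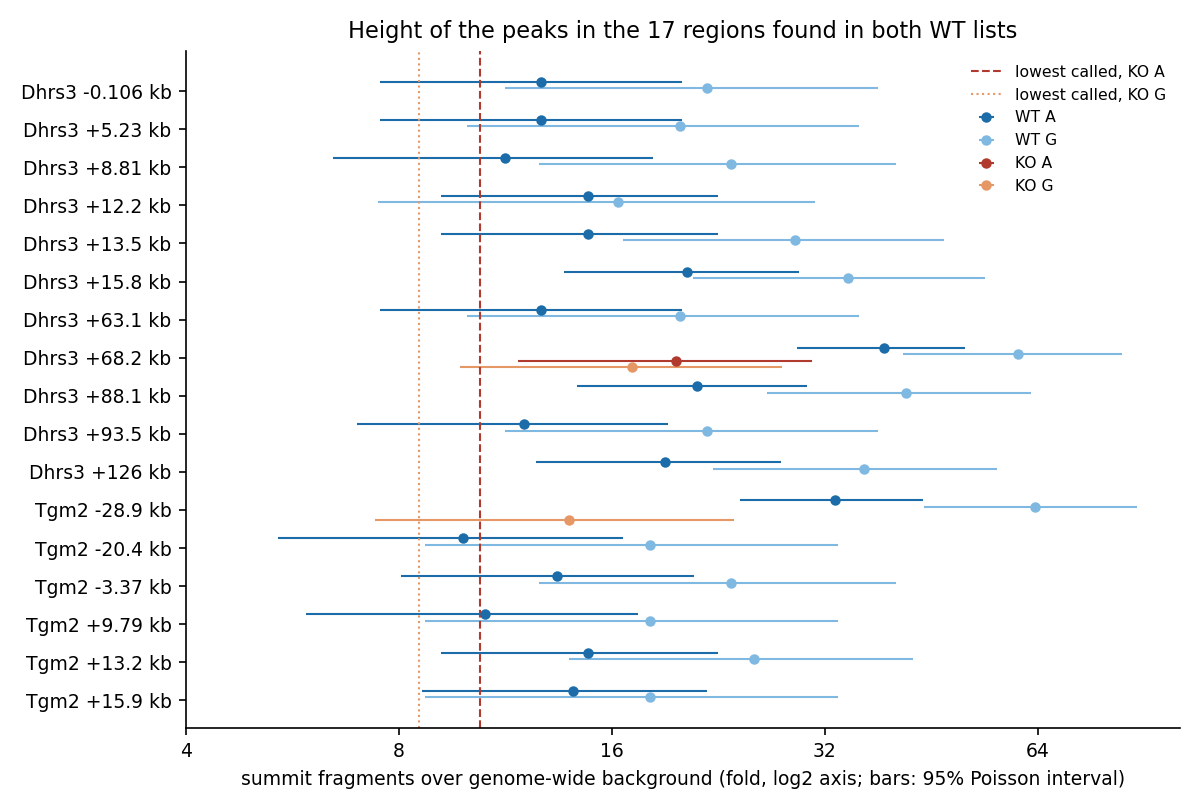
Fold over background of the highest peak in each of the 17 regions (rows, by gene and distance from the TSS), on a log2 axis, with bars for the 95% Poisson interval. The vertical lines stand at the lowest value called at genome-wide local background in KO A (10.4) and KO G (8.55) and are no limit where the local background is higher, and only the rows of Dhrs3 at +68.2 kb and Tgm2 at −28.9 kb have KO points, each left of the WT points.

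Of the 21 regions found in 1 WT list, 10 were near Dhrs3 in WT G and 1 in WT A, and 6 were near Tgm2 in WT G. Their −log10 q ran from 2.3 to 13.2 and their fragments from 6 to 17, while the lowest −log10 q of a WT peak in a region of both lists was 4.77. The highest was in WT G, 95.4 kb downstream of the Dhrs3 TSS (chr4:144988201-144988789), and held a DR3 with 2 mismatches 37 bp from its summit. The single WT A region near Dhrs3 stood at +145 kb with a −log10 q of 8. Tgm2 had 2 WT G peaks in the first kb of the gene, at +0.495 and +0.915 kb, with a −log10 q of 3.61 and 4.64, and no peak at the TSS itself.

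The enzymes that make retinoic acid had few peaks. Rdh10, the retinol dehydrogenase of the forward step, had 1 peak in each WT list, both centred 123 kb from its TSS (chr1:16228364-16228488 in WT A and chr1:16228524-16228922 in WT G). The −log10 q was 5.22 in WT A and 9.26 in WT G. They were separated by 35 bp and so did not count as shared, and the WT G summit lay in the 3′ UTR of Stau2. The next TSS, that of Rpl7, was 1.11 kb farther away than that of Rdh10, so the assignment rests on a small margin. Conversely, a WT G peak with a −log10 q of 4.64 lay 1.1 kb from the Rdh10 TSS but 0.011 kb from that of Rpl7, and was given to Rpl7.

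Aldh1a2, one of the retinal dehydrogenases, had 1 WT A peak 1.89 kb upstream of its TSS (chr9:71213821-71213980). Its −log10 q was 6.16, from 15 fragments, and it held a DR2 with 1 mismatch 63 bp from the summit. WT G, KO A and KO G had no peak there. Aldh1a1, its paralogue, had no peak, and the nearest WT peak stood 103 kb from its TSS. A promoter window of Aldh1a1 (chr19:20601718-20602017), not printed here, held a DR3 with 2 mismatches on the − strand, a match found in 3.06% of the promoter windows of all genes.

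The enzymes that degrade retinoic acid were no more bound. Cyp26b1 had 1 peak, in WT G, 43.1 kb from its TSS (chr6:84544462-84544676), with a −log10 q of 3.61 from 7 fragments. Cyp26a1 had none, and the nearest WT peak stood 195 kb from its TSS. Its promoter, printed above, held a DR5 with 2 mismatches on the − strand, both copies reading AGTTCA. A DR5 with at most 2 mismatches, whichever letters differed, was found in 2.79% of the promoter windows of all genes. That share does not measure how often both copies read AGTTCA. The carrier gene Crabp2 and the receptor gene Stra6 had no peak either, the nearest WT peaks standing 62.8 kb and 122 kb from their TSS. Crabp2 and Stra6 also had the shortest stretches of genome in which their TSS was the nearest, 20.3 kb and 22.6 kb, against 202 kb for Dhrs3 and 100 kb for Tgm2.

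The edges of the rule were as follows. The outermost Dhrs3 peak inside it stood 145 kb from the Dhrs3 TSS and 153 kb from that of Vps13d, and the next peak outside it, in WT G with a −log10 q of 8.04, lay 5.69 kb from a Vps13d start and 308 kb from Dhrs3. The outermost Tgm2 peak stood 32.2 kb upstream of its TSS and 50.6 kb from that of D630003M21Rik, and the nearest peak outside on the other side was 594 kb from Tgm2. Some non-coding genes start closer: the start of Gm38074 lay 2.46 kb from the centre of the Dhrs3 region at +68.2 kb, and that of 1700060C20Rik lay 16.7 kb from the centre of the Tgm2 region at −28.9 kb. Gm38074 also started closer to the Dhrs3 regions at +63.1, +88.1, +93.5 and +126 kb, and Gm20412 to the Tgm2 region at +15.9 kb. With starts of any gene type, 10 of the 17 regions stayed with Dhrs3 or Tgm2. The rank of Dhrs3 among genes was counted with protein-coding starts only.

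Repeats were counted at the summit of the stronger WT peak of each region. A DR1 to DR5 with at most 2 mismatches lay wholly within 50 bp of the summit in 3 of the 17 regions (Dhrs3 at +5.23, +13.5 and +93.5 kb), beside 13.5% of all 3423 regions and 5.58% and 5.46% of windows 500 bp to each side. DR1, the spacing used by RXR with PPAR, was in 0 of the 17 and in 6.34% of all regions. DR2 was in 2 of the 17 and in 2.54% of all regions, DR3 in 0 and in 2.04%, DR4 in 1 and in 1.9%, and DR5 in 1 and in 2.6%. With the summits of both WT libraries searched, a choice made after seeing the data, 4 of the 17 regions held a repeat, beside 20.6% of all regions. The added region was Dhrs3 at +15.8 kb, so that DR1 was then in 1 of the 17 and in 9.38% of all regions. At the summit of the stronger WT peak, PU.1 (AGGAAGTG) lay within 50 bp in 2 of 17 and in 4.62% of all regions, C/EBP (TTGCNNAA) in 1 and in 11%, AP-1 (TGACTCA) in 1 and in 5.49%, and RUNX (TGTGGTT) in 0 and in 5.93%. These words were searched without mismatch on both strands, and a match is a description and not a shown site.

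The distance between the WT A and WT G summits of a region was at most 100 bp in 9 of the 17, with a median of 94 bp, beside 96 bp over all 3423 regions. The 17 regions had a median width of 722 bp, beside 574 bp over all, and a median distance of 15.8 kb from the TSS, beside 15.7 kb. In these measures, which are descriptions, the list differed little from other bound regions except in width.

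A list of 51 other genes of retinoid handling and response was set beside these 9. Of these, 43 had no peak in any list, 8 had a WT peak, and 6 (11.8%) had a region in both WT lists, beside 8.82% of all protein-coding genes, among them Rara, Nrip1, Dgat1, Dhrs4 and Hic1. Rara, encoding the receptor RARα, had 6 such regions, the highest in its own intron 2.47 kb from the TSS with a −log10 q of 11.3 (WT A) and 15.9 (WT G). Nrip1, encoding a corepressor of nuclear receptors, had 4, the highest 154 kb upstream with 15.8 in WT A and 24.8 in WT G.

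Dgat1, an acyltransferase that can esterify retinol, had 2 regions in both WT lists and was the only gene of the 51 with KO peaks. At its promoter (chr15:76511901-76512621) the −log10 q was 22 (WT A) and 14.5 (WT G), against 8.48 (KO A) and 7.47 (KO G). Dhrs4, a retinal reductase, had 1 region 45.6 kb upstream with 11.3 in WT A and 5.73 in WT G, and Hic1, a transcriptional repressor, had 1 in an intron of Smg6 with 6.69 and 12.2. Rxra itself had 1 peak in each WT list, which did not form a shared region, and Fabp5, which carries retinoic acid to another receptor, had 1 peak in WT G.

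Among all protein-coding genes, the profiles most like those of Dhrs3 and Tgm2 were sought by the distance between the highest −log10 q values in the 4 lists, on a log2(1 + value) scale with 0 for a list without a peak. For Dhrs3 they were Trim25 (distance 0.799), Ccdc97 (1.14) and Atp13a3 (1.21). The values of Trim25 were 41.3 (WT A), 34.7 (WT G), 18.9 (KO A) and 15.1 (KO G). For Tgm2 they were Sept9 (0.84), Ext1 (0.862) and Ccl6 (0.943), all of them without a KO A peak and with a KO G peak. Likeness over 4 libraries says only that the heights were similar.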

How the data were processed

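HT-ChIPmentation libraries of RXRα were analysed for 2 WT and 2 KO samples, grouped by the genotype and letter in the labels. Per the submitters' processing notes and the methods of the study, the authors trimmed reads with Cutadapt, aligned them to mm10 with Bowtie2, filtered them with SAMtools and called peaks in each library with MACS3 against the input; replicates were not pooled. The deposited fold enrichment is a ratio of summit pileup to local background, each with 1 added. The deposited −log10 p and −log10 q refer to the summit, the score deposited beside them is 10 times the −log10 q without its decimals and was not used, and the summit column gives its offset from the peak start. The input was not analysed here.

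Peaks were given to the nearest protein-coding TSS (GENCODE vM21 basic). Features were promoter (1 kb before to 100 bp after a TSS), UTR, exon, intron or intergenic, at the summit. Fragments at a summit were solved from the fold enrichment and −log10 p (Poisson tail; tolerance 0.01), which succeeded for all peaks. The WT A pileup carried a factor of 0.884. The background recurring most often in a list (1.25, 0.551, 0.966 and 0.936 fragments for WT A, WT G, KO A and KO G) was its genome-wide background, and depth was that background per bp of the shortest peak. Intervals are 95% exact Poisson intervals and cover counting error only. Sequences came from GRCm38.p6 (mm10) and RefSeq promoters, which cover 6 of the 9 genes in 12 windows. Python 3.11.15, numpy 2.4.6, pandas 2.3.3 and pysam 0.24.0 were used, and the steps were tested on simulated data.

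No test between genotypes was made. Genes named were the 9 genes, their regions in both WT lists or with a KO peak, their other peaks by count and strength, genes of the list of 51 with a region in both WT lists (1 of them is not reported here), and the 3 genes closest in profile to Dhrs3 and to Tgm2. Rxra and Fabp5, the WT G peak at +95.4 kb, the WT A peak at +145 kb and the peaks in the first kb of Tgm2 were picked with their values in view. The genes, lists and motifs were chosen with earlier results of these data known. Alternatives covered the q threshold, overlap, peak position, TSS set, distance, list length, single libraries, pairing by letter and the repeat search, the search at either WT summit being added after the data were seen.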

Additional observations from a re-analysis of the deposited data

How the results depend on the processing

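No test between genotypes was made, and single WT peaks rested on as few as 5 fragments, so peaks of 1 list are the least certain. Of 83 alternative values, 59 stayed close to the reported one (within 1.5 times for a count). With a −log10 q of at least 5, the genes had 20 peaks in WT G and 1 in KO A. Where peaks had to share at least 50% of both lengths, 8 regions were in both WT lists and 0 had a KO peak, KO peaks being much shorter than WT peaks. With the nearest TSS of any gene type, 10 regions were in both WT lists and 0 had a KO peak, and the peaks numbered 12 (WT A), 18 (WT G), 0 (KO A) and 0 (KO G), since Gm38074 and 1700060C20Rik took the regions with KO peaks. With WT G held to its strongest peaks, as many as in WT A, it had 22 peaks near the genes and the ratio of WT to KO was 7.33. Leaving out each library in turn gave a ratio of 7.12 to 14.2 (11.7 without WT A, 7.33 without WT G), 17 to 35 regions (the highest without WT A, all WT G regions then counting), 1 to 2 regions with a KO peak (1 without KO G) and 2 to 4 genes with a region (4 without WT A and also without WT G). Pairing the letters, as a replicate block, gave ratios of 11 within A and 8.75 within G and a geometric mean of 9.81. The labels do not say whether the letters mark a pairing, and with 2 pairs nothing was tested. A direct repeat at the summit was found in 1 of the 17 regions with at most 1 mismatch, 7 with at most 3 and 5 within 100 bp. With 4 alternative half-sites and at most 1 mismatch, both changed at once, it was found in 1. As a setting added after seeing the data, 4 regions held a repeat at either WT summit.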
